A study of Mus musculus with 8 samples.

Results

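Amino acid transporters of the Slc1, Slc3, Slc7, Slc36, Slc38 and Slc43 families were followed in tibialis anterior, a fast muscle at the front of the shin, of mice given Porphyromonas gingivalis, an anaerobe of the periodontal pocket. The members were all non-control probes whose gene name begins with one of these family names followed by a number. The rule took 45 of the 37074 gene names on the array and 85 of its 56605 distinct probes, and it used no measured value. Of the 45, 3 are genes on the opposite strand of a transporter (Slc7a6os, Slc36a1os and Slc36a3os), which leaves 42 transporter genes. Expression was measured with 1-dye (Cy3) arrays on 8 male C57BL/6J mice aged 14 weeks. In the P. gingivalis group, 4 mice had received the bacterium by mouth in 100 µL of saline, through a feeding needle, for 6 weeks from the age of 8 weeks. The control group was 4 mice, and what they received is not given in the sources used here, nor are the bacterial dose and the hour of sampling. All 8 ate the diet labelled High-fat diet 32, so no mouse on another diet enters any comparison. The labels do not say that each sample came from its own mouse, and this was assumed. Should an animal have given more than 1 sample, the p-values would cover technical spread only.

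These proteins carry amino acids across the plasma membrane and the lysosomal membrane. Many Slc7 proteins are light chains that reach the cell surface only in a disulphide-linked pair with an Slc3 heavy chain, and they exchange one amino acid for another. Slc1 and Slc38 proteins use the sodium gradient to take up glutamate, glutamine and small neutral amino acids. Some Slc36 proteins move amino acids with protons, and Slc43 proteins are facilitators. In skeletal muscle, leucine delivered through such transporters feeds the mTORC1 pathway, and glutamine uptake is coupled to sodium. Amino acid shortage raises several of the genes through the kinase GCN2 and the transcription factor ATF4.

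The sequences below come from the brightest 60-base probes of the 2 member genes with the lowest p. They are shown because each shares stretches of 20 bases with probes named for other genes. The capitals mark the stretch found in the most other probes, and the letters around it are the probe's own, given 5′ to 3′.
Slc1a4, probe at chr11:20202615-20202674 (mm9, minus strand), bases 24 to 53: atcaaGTGTGTGTGTGTATGTGTGTgcttt
Slc3a2, probe at chr19:8781855-8781914 (mm9, minus strand), bases 28 to 57: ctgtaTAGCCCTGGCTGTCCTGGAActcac
The Slc1a4 stretch is almost wholly alternating G and T. The Slc3a2 stretch has the letters of B1, a short interspersed repeat present in very many copies in mouse DNA and transcripts. In all, 6 probes of other genes shared 1 or more 20-base stretches with the Slc1a4 probe, and 11 did so with this Slc3a2 probe. The marked stretch itself was in 6 other probes for Slc1a4 and in 5 for Slc3a2. The other members with such sharing were 1 probe each of Slc38a9, Slc3a1 and Slc7a10, each with 1 other probe. The shared stretch of the Slc38a9 probe has the same B1 letters, read on the other strand. A second probe for Slc3a2 shared none, and its first 30 bases are shown for contrast.
Slc3a2, probe at chr19:8782189-8782248 (mm9, minus strand), bases 1 to 30: gagggcttgctgttacagttcccctttgtg

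The groups themselves carry a doubt that bears on every comparison. The deposited value table names its columns by sample, yet only 2 of its 8 columns matched the scanner file of the same name, and 4 of 8 matched one of the same group. Each column had 1 clear partner, with correlations of 0.833 to 0.880 over probe-centred values and at most 0.0784 with any other array. Under the value table's names, P. gingivalis arrays 1 and 2 would be controls and control arrays 3 and 4 would be P. gingivalis arrays. Which naming is right could not be settled, so the groups are those of the scanner files throughout, and the key values are repeated with the other naming. The slide adds a further limit. All arrays shared 1 slide. Under the scanner files' names, P. gingivalis arrays were in row 2 and controls in row 1, so row and group cannot be told apart. The value table's columns, in their order, matched the slide read column by column, row 1 before row 2. Under its names, controls would fill slide columns 1 and 2 and P. gingivalis arrays columns 3 and 4. Each group would then lie in both rows, and column and group could not be told apart. Before scaling, the 75th percentile of the processed signal was 248 ± 7.16 on P. gingivalis arrays and 294 ± 14.4 on control arrays (SD, n = 4 each), with no overlap (two-sided exact permutation p = 0.0286, the smallest these groups allow). The share of spots well above background ran from 56.3% to 59.3%, none was saturated, and the number of arrays limits the precision. The tissue label was checked against 12 genes of the muscle fibre, all 12 of which were tested, with a summed level of 8033 to 8454 on P. gingivalis arrays and 7331 to 8086 on control arrays (linear signal over the 75th percentile).

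Levels below are log2 processed signals relative to each array's 75th percentile, and every difference is P. gingivalis minus control on that log2 scale. A probe was tested where 4 or more of the 8 arrays had it well above background, and a gene was read from the brightest of its tested probes (by mean signal). This left 49 probes of 32 genes. Another 13 genes had no tested probe: Slc1a2, Slc1a6, Slc1a7, Slc3a1, Slc7a3, Slc7a11, Slc7a12, Slc7a13, Slc7a15, Slc36a1os, Slc36a3, Slc36a3os and Slc38a5. Of the 36 untested probes, 29 were well above background on no array. Slc7a11, the cystine and glutamate exchanger, had 4 probes, of which 1 was well above background on 1 control array and the others on none. Of the 32 tested genes, 29 were well above background on all 8 arrays.

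No member passed the adjusted threshold of 0.05, and neither did any of the 31649 tested probes (0%). The lowest adjusted p among the member genes was 0.323 by limma with Benjamini-Hochberg adjustment. At an unadjusted p under 0.05 there were 6 member genes, 18.8% of those tested against 10.7% of all genes. Of these, 4 had the higher signal in P. gingivalis muscle (background 4.87% of genes) and 2 the lower (background 5.83%). Counted by probe, 9 members had an unadjusted p under 0.05, against 11.2% of all tested probes. Groups did not overlap for 2 genes, 6.25% of those tested, where the background was 7.07%. The difference was above 0 for 13 genes and below 0 for 19, with a median of −0.02, where 45.7% of all genes were above 0 with a median of −0.01. Scaling by each array's median in place of the 75th percentile gave 5 members higher and 0 lower at the same unadjusted threshold, where 9.92% of all genes were past it. Normexp background correction added an offset of 50 to every signal, above the median processed signal of each array (15.8 to 21.1). That setting gave 10 higher and 3 lower, where 26.4% of all genes were past the threshold. With the value table's groups the count was 1, and 3.52% of all genes.

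**Figure D1:**
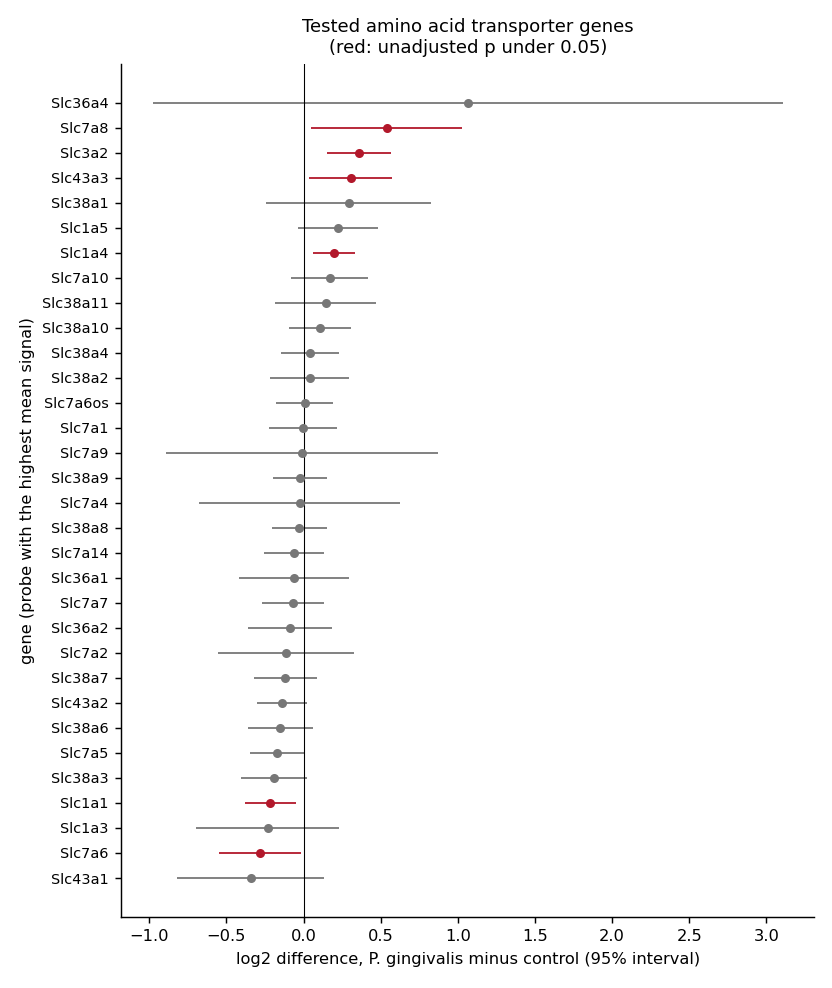
Log2 difference (P. gingivalis minus control) of the 32 tested genes, each by its brightest probe, as a point with its 95% interval from the limma fit. The 6 genes with an unadjusted p under 0.05 are in red, 4 to the right of 0 and 2 to the left, and Slc36a4 has the widest interval, from −0.98 to 3.11.

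The heavy chain Slc3a2 (CD98), which brings the light chains LAT1 and LAT2 among others to the surface, gave different answers by probe. Its brightest probe, designed on NM_001161413 and shown above, stood at 4.69, 4.40, 4.59 and 4.63 on P. gingivalis arrays 1 to 4, against 4.20, 4.16, 4.40 and 4.11 on control arrays 1 to 4. Only control 3 reached into the P. gingivalis range. The difference was 0.36 ± 0.09 (SE), a fold of 1.28 with a 95% interval of 1.11 to 1.48 (adjusted p = 0.323 by limma). The probe designed on NM_008577, which shares no stretch with another gene's probe, stood at 2.94, 3.0, 2.85 and 2.87 on P. gingivalis arrays, against 3.13, 3.12, 2.98 and 2.85 on control arrays. Its difference was −0.11 with an interval of −0.30 to 0.08 (adjusted p = 0.634). The third probe, designed on AK180963, differed by −0.13 with an interval of −0.41 to 0.15 (adjusted p = 0.698). The mean over the 3 probes differed by 0.04. Of the 11 other probes that share a stretch with the brightest one, 7 were higher and 4 lower in P. gingivalis muscle, 4 had an unadjusted p under 0.05, and their differences ran from −0.16 to 0.48 with a median of 0.07. The part of the shared bases in the Slc3a2 difference was not tested. The other heavy chain, Slc3a1, which pairs with Slc7a9 in kidney and intestine, was well above background on no array.

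**Figure D2:**
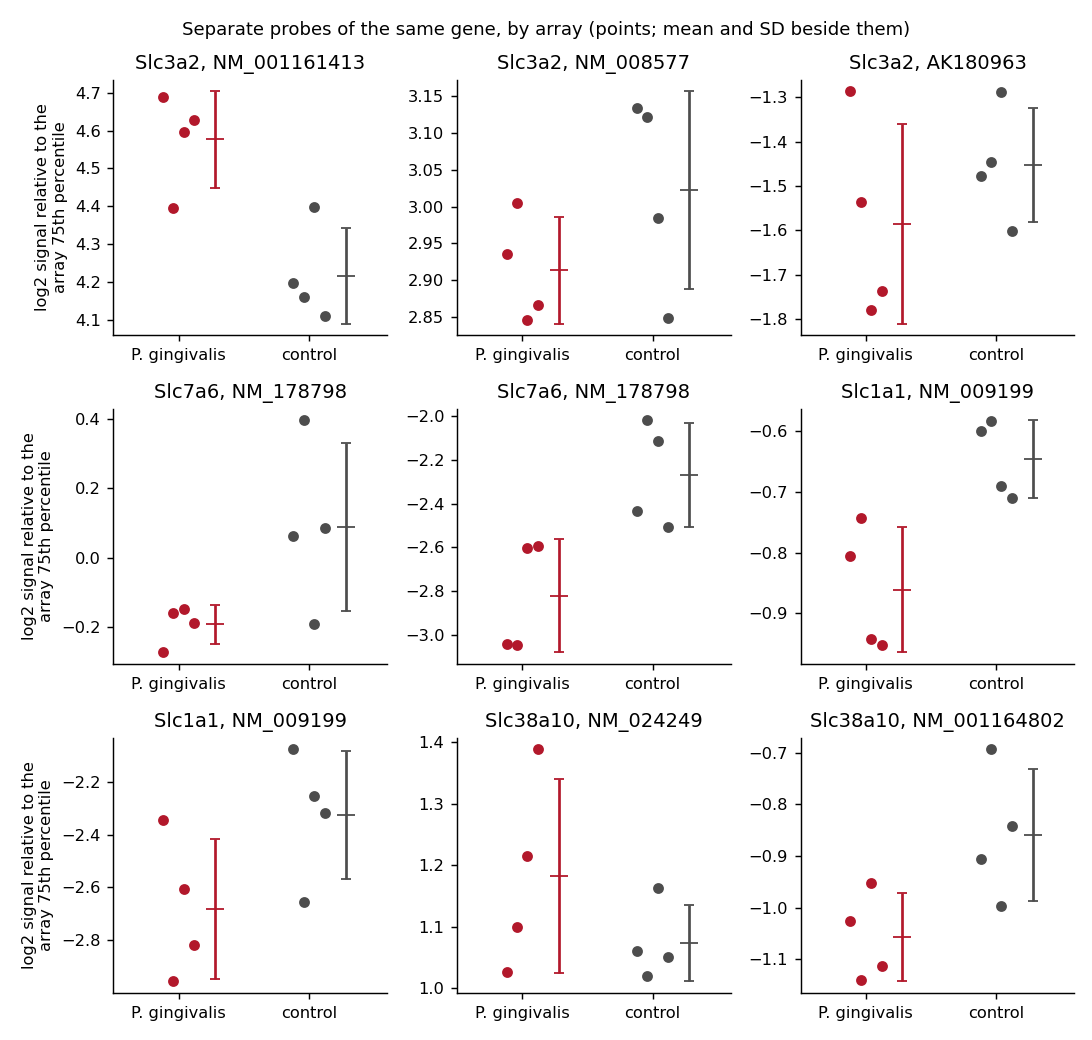
Log2 signal relative to the array's 75th percentile for separate probes of Slc3a2, Slc7a6, Slc1a1 and Slc38a10, with 4 P. gingivalis arrays (red) left of 4 control arrays (grey) and mean ± SD beside the points. The Slc3a2 probe designed on NM_001161413 lies mostly above the controls while the other 2 do not, and both probes of Slc7a6 and of Slc1a1 lie mostly below.

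Among the tested light chains, LAT2 and Slc7a10 stood above 0 and LAT1, the y+L exchangers and Slc7a9 below, and none passed adjustment. Slc7a8 (LAT2), an exchanger of neutral amino acids, stood at 1.46, 1.29, 0.95 and 1.03 on P. gingivalis arrays 1 to 4, against 0.17, 0.55, 1.21 and 0.65 on control arrays 1 to 4. Control 3 was above 2 of the P. gingivalis arrays, and the other 3 controls were below all of them. The difference was 0.54 ± 0.21 (SE), a fold of 1.45 with an interval of 1.03 to 2.04 (adjusted p = 0.423). This was the largest difference in size among the member genes well above background on all arrays, each read by its brightest probe. It ran from 0.38 to 0.73 when 1 array was left out at a time. Slc7a5 (LAT1), the leucine carrier of growing cells, stood at −1.03, −1.17, −1.13 and −1.11 on P. gingivalis arrays, against −0.77, −0.94, −1.05 and −1.01 on control arrays. The groups overlapped by 1 array on either side, and the difference was −0.17 ± 0.08 (adjusted p = 0.45).

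Slc7a6, which exchanges cationic for neutral amino acids and sodium, stood at −0.27, −0.16, −0.15 and −0.19 on P. gingivalis arrays, against 0.06, 0.40, −0.19 and 0.09 on control arrays. Control 3 again lay within the P. gingivalis range. The difference was −0.28 ± 0.12, a fold of 0.824 with an interval of 0.685 to 0.990 (adjusted p = 0.433). A second probe for this transcript, at chr8:108721147-108721206 (mm9), stood at −3.04, −3.05, −2.60 and −2.59 on P. gingivalis arrays, against −2.43, −2.02, −2.11 and −2.51 on control arrays. These values did not overlap, and the difference was −0.55 ± 0.16 (adjusted p = 0.329). Slc7a6os, the next gene on chromosome 8 and on the opposite strand, differed by 0.01 with an interval of −0.18 to 0.19. Slc7a7, which carries out a similar exchange in epithelia and macrophages, differed by −0.07 with an interval of −0.27 to 0.13.

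The cationic amino acid carriers had differences whose intervals all included 0. Slc7a1 (CAT1) averaged −0.49 ± 0.13 on P. gingivalis arrays and −0.48 ± 0.14 on control arrays (SD, n = 4 each), and its difference had an interval of −0.22 to 0.22. Slc7a2 (CAT2) averaged 0.21 ± 0.30 on P. gingivalis arrays and 0.32 ± 0.32 on control arrays, with an interval of −0.55 to 0.33. Slc7a4, a CAT relative, was well above background on 2 arrays of either group and differed by −0.03. Slc7a14, a lysosomal relative, differed by −0.06, Slc7a9, the partner of Slc3a1 and also well above background on 2 arrays of either group, by −0.01, and Slc7a10 (Asc-1), a carrier of small neutral amino acids, by 0.17. Intervals of all 4 included 0.

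**Figure D3:**
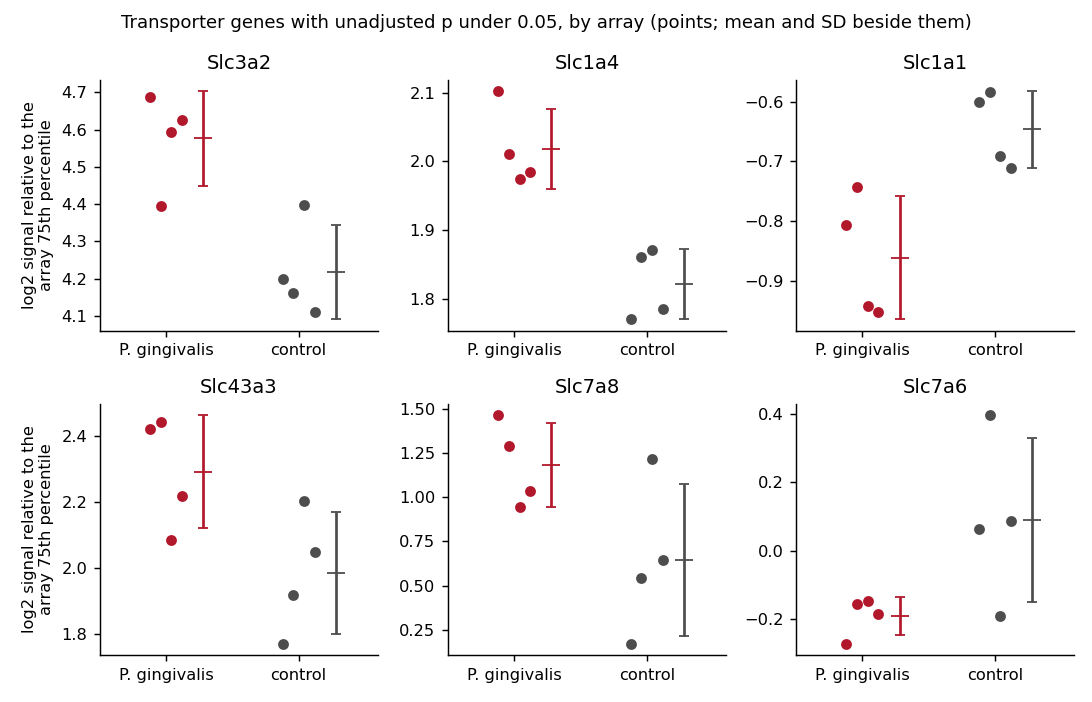
Log2 signal relative to the array's 75th percentile for the 6 members with an unadjusted p under 0.05, with 4 P. gingivalis arrays (red, left) and 4 control arrays (grey, right) as points and mean ± SD beside them. Slc1a4 and Slc1a1 have groups that do not overlap, and in the other 4 the one control inside the P. gingivalis range is control 3.

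The Slc43 facilitators stood on both sides of 0. Slc43a3, which in mammals carries purine nucleobases rather than amino acids, stood at 2.42, 2.44, 2.08 and 2.22 on P. gingivalis arrays 1 to 4, against 1.77, 1.92, 2.20 and 2.05 on control arrays 1 to 4. Control 3 was above 1 P. gingivalis array, and the other controls were below all 4. The difference was 0.31 ± 0.12, a fold of 1.24 with an interval of 1.03 to 1.49 (adjusted p = 0.412). Its dimmer probe differed by 0.39 with an interval of −0.40 to 1.19. Slc43a1 (LAT3) averaged 0.85 ± 0.19 on P. gingivalis arrays and 1.19 ± 0.44 on control arrays, where control 2 was at 1.83. Its difference was −0.34 with an interval of −0.82 to 0.13. Slc43a2 (LAT4), like LAT3 a facilitator for branched-chain and aromatic amino acids, stood at −0.29, −0.24, −0.26 and −0.32 on P. gingivalis arrays, against −0.08, −0.19, −0.28 and −0.02 on control arrays, a difference of −0.14 ± 0.07 (adjusted p = 0.503). Its dimmer probe differed by 0.06 with an interval of −0.47 to 0.59.

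The Slc1 family held both genes whose groups did not overlap. Slc1a4 (ASCT1), an exchanger of alanine, serine, cysteine and threonine, stood at 2.10, 2.01, 1.98 and 1.98 on P. gingivalis arrays, against 1.77, 1.86, 1.87 and 1.79 on control arrays. The difference was 0.20 ± 0.06, a fold of 1.15 with an interval of 1.04 to 1.26 (adjusted p = 0.349). Its probe is the one shown above with the alternating G and T. The 6 other probes that share a stretch with it differed by 0.09 to 0.26 with a median of 0.19, all 6 were higher in P. gingivalis muscle, and 5 had an unadjusted p under 0.05. They are named for Bpifc, Synpo2l, Skint7, 9530083O12Rik, Ccdc25 and E130314K07Rik. Slc1a4 had no other tested probe, and the part of the shared bases in its difference was not tested. With the value table's groups the Slc1a4 difference was −0.03.

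Slc1a1 (EAAT3), a glutamate and cysteine transporter, stood at −0.81, −0.74, −0.94 and −0.95 on P. gingivalis arrays, against −0.60, −0.58, −0.69 and −0.71 on control arrays. Each P. gingivalis array lay below each control array. The difference was −0.21 ± 0.07, a fold of 0.862 with an interval of 0.769 to 0.965 (adjusted p = 0.372). The second probe of this gene, in the same transcript, differed by −0.35 with an interval of −0.72 to 0.01 (adjusted p = 0.453), and neither probe shared a stretch with another gene. Slc1a5 (ASCT2), the glutamine exchanger of dividing cells, stood at 0.73, 0.69, 0.61 and 0.43 on P. gingivalis arrays, against 0.43, 0.10, 0.56 and 0.46 on control arrays, a difference of 0.22 ± 0.11 (adjusted p = 0.492). Slc1a3 (GLAST), a glutamate transporter of astrocytes, averaged −4.03 ± 0.45 on P. gingivalis arrays and −3.80 ± 0.11 on control arrays, with an interval of the difference of −0.70 to 0.23. Slc1a2 and Slc1a6, also glutamate transporters of the nervous system, were well above background on no array, and Slc1a7 on 1 P. gingivalis array and 2 control arrays.

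Of the Slc38 family, which includes the main sodium-coupled glutamine carriers, 10 of 11 genes were tested, 5 above 0 and 5 below, and none had an unadjusted p under 0.05 on its brightest probe. Slc38a2 (SNAT2), the carrier that amino acid shortage induces in many cells, stood at 4.35, 4.30, 4.20 and 4.32 on P. gingivalis arrays, against 4.22, 4.20, 4.57 and 4.03 on control arrays. The P. gingivalis values lay inside the control range, and the difference was 0.04 with an interval of −0.22 to 0.30. Its second probe differed by 0.06. Slc38a4 (SNAT4) averaged 3.14 ± 0.15 on P. gingivalis arrays and 3.10 ± 0.04 on control arrays, with an interval of −0.15 to 0.23. Slc38a1 (SNAT1) averaged −3.39 ± 0.39 on P. gingivalis arrays and −3.68 ± 0.37 on control arrays, with an interval of −0.24 to 0.83. Slc38a1, Slc38a2 and Slc38a4 are neighbours on chromosome 15, and no one of the 3 had a difference whose interval left out 0.

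Slc38a3 (SNAT3), which works in both directions for glutamine, stood at 2.34, 2.36, 2.32 and 2.25 on P. gingivalis arrays, against 2.60, 2.33, 2.71 and 2.39 on control arrays, a difference of −0.19 ± 0.09 (adjusted p = 0.476). Control 2 was the one control within the P. gingivalis range. Slc38a9 (SNAT9), the lysosomal arginine sensor of mTORC1, averaged 3.42 ± 0.04 on P. gingivalis arrays and 3.44 ± 0.13 on control arrays, and its interval was −0.20 to 0.15. That level is from the probe with the B1 letters. Its second probe, which shares no stretch, averaged 0.09 ± 0.11 on P. gingivalis arrays and 0.10 ± 0.12 on control arrays. The interval of this second probe was −0.20 to 0.19. All 3 tested probes of Slc38a6 were below 0, at −0.15, −0.19 and −0.31, the last with an adjusted p = 0.433. Slc38a10 was split, with 0.11 on its brightest probe (adjusted p = 0.659) and −0.20 on the probe designed on NM_001164802 (adjusted p = 0.433). Slc38a7, a lysosomal glutamine exporter, differed by −0.12, Slc38a8 by −0.03 and Slc38a11 by 0.14, with intervals that included 0. Slc38a5 was well above background on no array.

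The Slc36 carriers were dim. Slc36a1 (PAT1), which exports amino acids from lysosomes, averaged −2.67 ± 0.28 on P. gingivalis arrays and −2.61 ± 0.20 on control arrays, and its neighbour on chromosome 11, Slc36a2 (PAT2), averaged −3.37 ± 0.10 on P. gingivalis arrays and −3.28 ± 0.23 on control arrays. Neither difference had an interval that left out 0, and the 3 tested probes of Slc36a2 did not share a sign. Slc36a4 (PAT4) stood at −3.74, −0.23, −4.82 and −4.29 on P. gingivalis arrays, against −4.31, −4.68, −4.46 and −3.89 on control arrays. The difference was 1.07 ± 0.89 (adjusted p = 0.671) and 0.05 without P. gingivalis 2, and the other 3 P. gingivalis arrays spanned the control range. It was well above background on 3 P. gingivalis arrays and 4 control arrays. Slc36a3, the next gene to Slc36a2, was well above background on no array.

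A single control recurred among the members picked by their p. Of the 6 members with an unadjusted p under 0.05, 4 overlapped between groups, and in each of the 4 it was control 3 that lay in the P. gingivalis range. The share of all genes with such an overlap was not counted, so no background stands beside this count. In Slc38a3, outside this pick, the control in the range was control 2. Without control 3, 10 members (5 higher, 5 lower) had an unadjusted p under 0.05, against 11.8% of all genes. Without P. gingivalis 2 the count was 3, as it was without control 1, with 8.24% and 8.10% of all genes. The value table gives the control 3 and control 4 arrays to the P. gingivalis group, and P. gingivalis 1 and 2 to the controls. Control 4 lay outside the P. gingivalis range in each of those 4 genes. They were picked by their p under the scanner files' names, so the place of control 4 cannot tell which naming is right. The cause of the control 3 values was not tested. On the 4 arrays that both sources place in the same group (P. gingivalis 3 and 4, control 1 and 2), the differences were 0.43 for the brightest Slc3a2 probe, 0.63 for Slc7a8, 0.31 for Slc43a3, 0.16 for Slc1a4, −0.36 for Slc1a1 and −0.40 for Slc7a6. With the value table's groups on all 8 arrays, they were 0.07 for that Slc3a2 probe, 0.09 for Slc7a8, 0.00 for Slc43a3, −0.03 for Slc1a4, −0.14 for Slc1a1 and −0.12 for Slc7a6. With each array left out in turn, Slc3a2, Slc1a4 and Slc1a1 had an unadjusted p under 0.05 in 8 of 8 fits. Slc43a3 did so in 4, Slc7a8 in 3 and Slc7a6 in 1. The 6 genes were picked by their p on all 8 arrays. Neither the 4 arrays placed alike by both sources nor the fits with 1 array left out are therefore an independent check.

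Of the 14 member genes with more than 1 tested probe, 9 had probes of 1 sign and 5 did not (Slc3a2, Slc36a2, Slc38a4, Slc38a10 and Slc43a2). Reading each gene by its brightest probe without a shared stretch left 30 genes. Of these, 2 were higher and 2 lower at an unadjusted p under 0.05, against 10.7% of all genes in that setting. This choice of probe was made after the data were seen. Slc1a4 and Slc3a2 were the 2 that left the count.

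Promoters were searched for the letters TGATGNAA on both strands, the C/EBP-ATF response element to which ATF4 binds as a partner of C/EBP proteins. RefSeq promoters (GRCm38.p6, 250 bases before to 50 after each start) were found for 34 of the 45 genes, and the element was in those of 3 genes, or 8.82%, against 4.51% of all genes. In these sequences the capitals mark the element, read on the gene's strand.
Slc1a4, chr11:20332699-20332728 (minus strand): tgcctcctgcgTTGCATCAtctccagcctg
Slc7a11, chr3:50443661-50443690 (minus strand): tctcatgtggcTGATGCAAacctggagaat
Slc7a11, chr3:50443642-50443671 (minus strand): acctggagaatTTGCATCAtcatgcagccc
Slc7a7, chr14:54418067-54418096 (minus strand): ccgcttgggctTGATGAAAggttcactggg
Slc7a7, chr14:54417927-54417956 (minus strand): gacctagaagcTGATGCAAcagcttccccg
The sequences are shown because ATF4 links amino acid supply to transporter transcription. Of the 3 genes, Slc1a4 differed by 0.20 and Slc7a7 by −0.07, and Slc7a11 was not tested. A match describes these letters only.

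Several lists of related genes, chosen with earlier results of these data known, were read beside the members. Of 29 genes of the GCN2 and ATF4 response, 27 were tested, 9 above 0 and 18 below, with a median of −0.07. At an unadjusted p under 0.05, 1 was higher and 5 were lower in P. gingivalis muscle, against 4.87% and 5.83% of all genes. Ppp1r15a (GADD34), the phosphatase subunit that reverses phosphorylation of eIF2α, averaged 3.16 ± 0.05 on P. gingivalis arrays and 3.52 ± 0.09 on control arrays (SD, n = 4 each). Its groups did not overlap, and the difference was −0.36 ± 0.07 (SE; adjusted p = 0.309). Cebpg, a dimer partner of ATF4, averaged 1.80 ± 0.09 on P. gingivalis arrays and 2.09 ± 0.08 on control arrays, also without overlap, a difference of −0.29 ± 0.07 (adjusted p = 0.323). Gpt2, the mitochondrial alanine transaminase, averaged 5.44 ± 0.02 on P. gingivalis arrays and 5.21 ± 0.11 on control arrays, a difference of 0.23 ± 0.07 (adjusted p = 0.338). Atf4 itself differed by −0.11 (adjusted p = 0.588). With the value table's groups the list had 1 gene at an unadjusted p under 0.05, against 3.52% of all genes. Its median was then 0.02, and Ppp1r15a differed by −0.05.

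**Figure D4:**
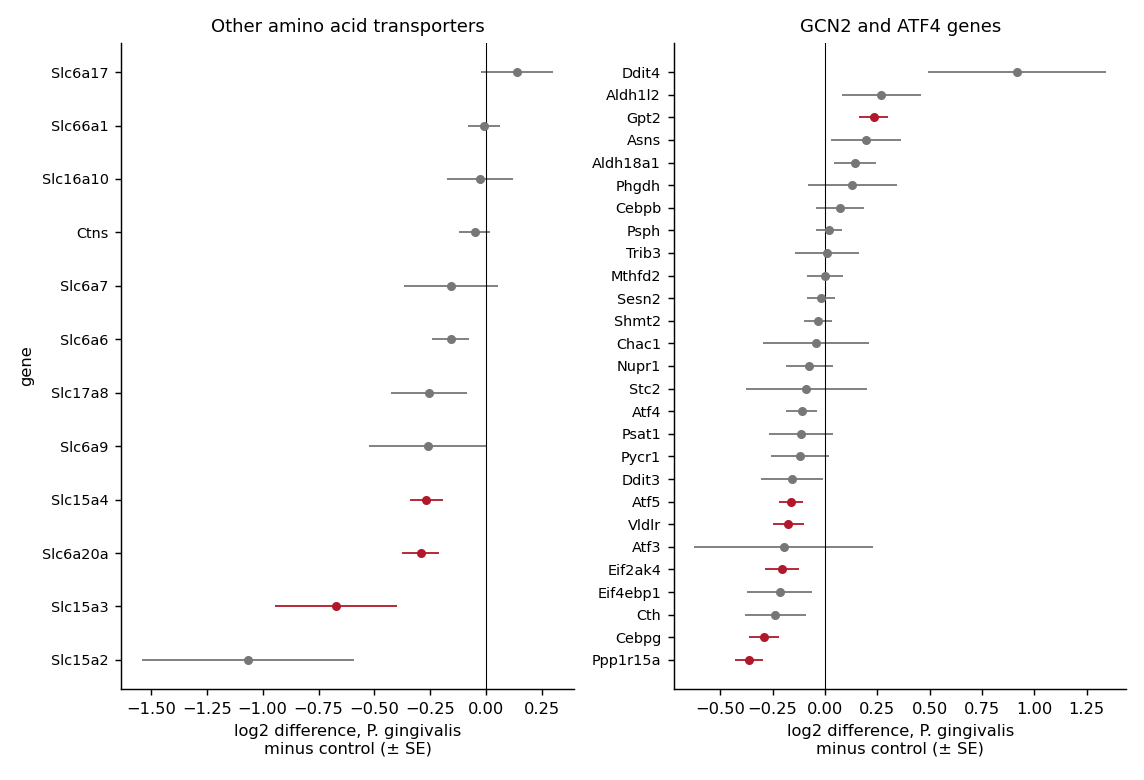
Log2 difference (P. gingivalis minus control) with its SE for the tested genes of 2 lists, other amino acid transporters (left panel, 12 genes) and GCN2 and ATF4 genes (right panel, 27 genes), with unadjusted p under 0.05 in red. On the left 11 of 12 points lie below 0, and on the right 18 of 27.

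Amino acid and peptide carriers outside the 6 families formed a list of 22 genes, of which 12 were tested, 1 above 0 and 11 below, with a median of −0.21 against −0.01 over all genes. At an unadjusted p under 0.05, 3 were lower and 0 higher, against 5.83% and 4.87% of all genes. Slc15a4, the lysosomal histidine and peptide carrier, averaged 3.43 ± 0.03 on P. gingivalis arrays and 3.70 ± 0.12 on control arrays, a difference of −0.27 ± 0.07 without overlap (adjusted p = 0.327). Slc6a20a, a proline carrier, averaged −2.77 ± 0.15 on P. gingivalis arrays and −2.48 ± 0.05 on control arrays, a difference of −0.29 ± 0.08 (adjusted p = 0.329). Slc15a3, a relative of Slc15a4, was well above background on 2 P. gingivalis arrays and 4 control arrays, with a difference of −0.67 ± 0.27 (adjusted p = 0.43). The list's median was −0.01 with normexp background correction and 0.01 with the value table's groups.

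Of 32 genes of amino acid sensing and mTORC1, all were tested, 14 above 0 and 18 below, and the median of −0.02 was close to that of all genes. Flcn, folliculin of the lysosomal Rag pathway, differed by −0.26 ± 0.10 (adjusted p = 0.417). Sec13, of the GATOR2 complex, differed by 0.14 ± 0.06 (adjusted p = 0.43), and Sesn3, a sestrin, by 0.20 ± 0.09 (adjusted p = 0.444). These were the 3 at an unadjusted p under 0.05, against 10.7% of all genes. With control 1 left out the count was 0, against 8.10% of all genes. Of 13 enzymes of glutamine, glutamate, alanine and aspartate, 12 were tested, 5 above 0 and 7 below. Beside Gpt2, Glud1 (glutamate dehydrogenase) had an unadjusted p under 0.05, with a difference of 0.13 ± 0.06 (adjusted p = 0.435). Both were higher in P. gingivalis muscle, where 4.87% of all genes were higher at that threshold. Of 9 mitochondrial amino acid carriers, 8 were tested, 4 above 0 and 4 below, and none had an unadjusted p under 0.05. The lowest p-values there were those of Slc25a44, the branched-chain amino acid carrier, at 0.20 ± 0.11 (adjusted p = 0.521), Slc25a13, an aspartate and glutamate carrier, at −0.32 ± 0.23 (adjusted p = 0.616), and Slc25a29, a carrier of basic amino acids, at 0.20 ± 0.18 (adjusted p = 0.696).

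Muscle pieces hold other cells that also carry these transporters, and in bulk RNA fewer cells of a type and less RNA per cell cannot be told apart. For the marker counts below, the background over all genes was 45.7% above 0. It was 4.87% higher and 5.83% lower at an unadjusted p under 0.05. Of 7 fibroblast markers, all 7 were tested and above 0, 4 had an unadjusted p under 0.05, and their median difference was 0.64. Their summed level ran from 203 to 244 on P. gingivalis arrays and from 153 to 207 on control arrays. Of 8 macrophage markers, 7 were above 0 and 2 had an unadjusted p under 0.05, with a summed level of 25.4 to 35.2 on P. gingivalis arrays and 21.8 to 28.1 on control arrays. All 7 endothelial markers were below 0, 2 of them with an unadjusted p under 0.05, with a summed level of 25.5 to 33.7 on P. gingivalis arrays and 32.1 to 38.5 on control arrays. Of 7 neutrophil markers, 5 were tested and all 5 were below 0, with a median difference of −0.32. Of the 5, 2 had an unadjusted p under 0.05, S100a8 at −3.42 ± 0.97 and S100a9 at −2.93 ± 0.80. The neutrophil markers had a summed level of 43.9 to 51.7 on P. gingivalis arrays and 51.2 to 58.5 on control arrays. The part of these cells in the transporter differences was not tested.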

How the data were processed

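The authors' deposited scanner files hold spot intensity values from Agilent Feature Extraction (11.0.1.1 per the file headers, 11.1 per the submitters' processing notes), background-subtracted and detrended within each array and not normalized between arrays, per the file headers. Labelled cRNA came from 200 ng of total RNA, per the labels' protocols. The deposited value table holds log2 signals of 24764 probes; its exact scaling is not given in the sources used here.

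From the 59305 non-control spots, outlier-flagged spots were left out and log2 intensity less the array's 75th percentile was averaged per probe. A probe counted as well above background where over 50% of its spots were. The 31649 tested probes (16004 genes) entered a limma 3.58.1 fit (R 4.3.3; lmFit, eBayes) on group alone, p-values were adjusted by the Benjamini-Hochberg method across them, and the threshold was 0.05. Every unadjusted p of a gene or probe is from the same fit. Intervals are 95% confidence intervals. Tests were checked on simulated data.

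The members and lists were chosen with earlier results of these data known. Every member gene was named; full values went to members with an unadjusted p under 0.05 or groups that did not overlap, to 18 transporters picked by role, and to the 3 genes of lowest p in each list, of which 1 is not reported here. Probe positions are mm9, where no annotation was used; promoters came from RefSeq. Other cell markers examined were those of smooth muscle and pericytes (6 of 7 above 0), T and B cells (2 of 5 tested), erythroid cells (0 of 5 tested), adipocytes (5 of 7), Schwann cells (2 of 7) and satellite cells (1 of 4 tested). Alternatives covered scaling, background correction, filters, probe choice, variance models, groups and single arrays.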

Additional observations from a re-analysis of the deposited data

Results flagged for a closer look

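In 92 groups of 4 arrays examined, 4 held an array whose gap to the nearest of the others exceeded Dixon's critical share of the group's range, where chance gives about 5%. Slc7a7 stood at −1.37 on P. gingivalis 1, with the other P. gingivalis arrays between −1.66 and −1.62. Slc38a6 stood at −1.48 on the same array, with the others of its group between −1.74 and −1.70. Slc38a8 stood at −1.40 on P. gingivalis 2, with the others between −1.15 and −1.13. Slc6a20a stood at −2.55 on control 3, with the other controls between −2.46 and −2.45. No cause was tested for any of them.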

How the results depend on the processing

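Over all tested probes, 0 passed an adjusted p of 0.05 by limma (3544 had an unadjusted p under 0.05), while 2 passed with an intensity trend in the variance, 2 with no filter on dim probes, 14 with normexp and 1 with the value table's columns matched to the scanner files. The part of the normexp offset of 50 in its counts and sign changes was not tested, nor were the other causes.

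The difference of the 75th percentile before scaling was −45.6, ran from −52.0 to −41.7 when 1 array was left out (p = 0.0571 by the exact permutation test without P. gingivalis 3, and 0.0286 without any 1 of the other arrays), and was −8.68 with the value table's groups (exact permutation p = 0.629). The count of member genes at an unadjusted p under 0.05 was 6, and it was 13 with normexp (where 26.4% of all genes were past that threshold, against 10.7%), 1 with the value table's groups, 1 with the value table under its own labels, and 3 to 10 with 1 array left out. The count of member probes was 9, and it was 17 with normexp, 1 with the value table's groups, 1 under its own labels, and 4 to 13 with 1 array left out (4 without P. gingivalis 2 or without control 1).

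For GCN2 and ATF4 genes the count was 6, against 3 with the array median, 1 with the value table's groups, 1 under its own labels and 3 to 7 with 1 array left out (3 without control 1). For amino acid sensing and mTORC1 genes it was 3, against 7 with normexp, 0 on the 4 arrays placed alike by both sources and 0 to 3 with 1 array left out (0 without control 1, and 1 without any 1 of the P. gingivalis arrays or control 2). For glutamine and glutamate enzymes it was 2, against 4 with the variance trend, 1 with the mean over probes, 1 with no filter, 1 on the 4 arrays, 0 with the value table's groups, 0 under its own labels, 1 with matched columns and 1 to 3 with 1 array left out (1 without P. gingivalis 3 or 4). For mitochondrial carriers it was 0, against 1 with normexp, 1 with matched columns and 0 to 1 with 1 array left out (1 without P. gingivalis 1, P. gingivalis 3 or control 1). For other amino acid transporters it was 3, against 5 with normexp and 1 with the value table under its own labels. The share of all genes past the threshold also moved, from 10.7% to 26.4% with normexp and 13.1% with the variance trend. It was 9.92% with the array median, 11.2% with the mean over probes, 8.87% with no filter and 11.6% with matched columns. On the 4 arrays it was 8.09%, with the value table's groups 3.52%, under its own labels 3.61%, and with 1 array left out 8.10% to 11.8%.

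Same-numbered arrays of the 2 groups correlated at 0.0629, 0.0333, 0.0069 and 0.0086 in their deviations from the group means, so the numbers were not taken to pair the mice. With the replicate number as a block, 9.56% of all genes had an unadjusted p under 0.05. The counts were then 3 member genes, 1 gene of amino acid sensing and mTORC1, and 1 of the glutamine and glutamate enzymes.

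Single genes changed sign as follows (log2 differences). With the 75th percentile over detected probes, Slc7a1 was at 0.0033. With the array median, Slc38a8 was at 0.0054, Slc38a9 at 0.0088, Slc7a1 at 0.029, Slc7a4 at 0.0069 and Slc7a9 at 0.020. With array weights, Slc7a9 was at 0.12. With quantile normalization, Slc7a1 was at 0.0080 and Slc7a9 at 0.016. With the mean over probes, Slc36a2 was at 0.020 and Slc38a10 at −0.045. By the brightest probe without a shared stretch, Slc3a2 was at −0.11. With normexp, Slc15a3 was at 0.041, Slc1a3 at 0.083, Slc25a13 at 0.048, Slc36a1 at 0.081, Slc36a2 at 0.075, Slc38a2 at −0.034, Slc38a8 at 0.035, Slc7a4 at 0.16, Slc7a6os at −0.040, Slc7a7 at 0.059 and Slc7a9 at 0.19. On the 4 arrays, Slc36a4 was at −0.058, Slc38a11 at −0.14, Slc7a14 at 0.019 and Slc7a4 at 0.067. With the value table's groups, Sesn3 was at −0.0037, Slc1a3 at 0.052, Slc1a4 at −0.032, Slc25a13 at 0.24, Slc36a1 at 0.061, Slc36a4 at −1.12, Slc38a1 at −0.091, Slc38a11 at −0.28, Slc38a3 at 0.012, Slc38a7 at 0.023, Slc38a8 at 0.016, Slc38a9 at 0.013, Slc6a20a at 0.042, Slc7a10 at −0.067, Slc7a14 at 0.079 and Slc7a4 at 0.092. Under the value table's own labels, Slc1a4 was at −0.0034, Slc25a13 at 0.095, Slc36a4 at −0.65, Slc38a1 at −0.060, Slc38a11 at −0.11, Slc38a3 at 0.029, Slc38a7 at 0.013, Slc38a8 at 0.0053, Slc38a9 at 0.022, Slc7a10 at −0.067, Slc7a14 at 0.074 and Slc7a6 at 0.016. With matched columns, Slc7a6os was at −0.0079 and Slc7a7 at 0.024. With 1 array left out, values ran from −0.19 to 0.024 for Slc36a1, −0.18 to 0.0062 for Slc36a2, −0.036 to 0.14 for Slc38a2, −0.00019 to 0.11 for Slc38a4, −0.052 to 0.039 for Slc38a8, −0.065 to 0.035 for Slc38a9, −0.068 to 0.047 for Slc7a1, −0.25 to 0.016 for Slc7a2, −0.26 to 0.17 for Slc7a4, −0.026 to 0.057 for Slc7a6os and −0.31 to 0.36 for Slc7a9. Ppp1r15a passed the adjusted threshold with normexp (−0.41, adjusted p = 0.0329). The other 955 gene values over all settings kept their sign and their side of the threshold, and the causes of these changes were not tested. The value table holds 27 of the 32 tested member genes.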
